A study of Saccharomyces cerevisiae with 61 samples.

Results

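The 31 genes described here encode the subunits of the nuclear RNA polymerases I, II and III of budding yeast. They were chosen by gene symbol from the 6249 features of the array, and each of the 31 was measured by 1 probe. Of them, 7 belong to Pol I only (RPA190, RPA135, RPA49, RPA43, RPA34, RPA14 and RPA12), 2 are shared by Pol I and Pol III (RPC40 and RPC19) and 10 belong to Pol III only (RPO31, RET1, RPC82, RPC53, RPC37, RPC34, RPC31, RPC25, RPC17 and RPC11). A further 5 are common to Pol I, II and III (RPB5, RPB8, RPB10, RPO26 and RPC10), and 7 belong to Pol II only (RPO21, RPB2, RPB3, RPB4, RPB7, RPB9 and RPB11).

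Pol I transcribes the large ribosomal RNA precursor, Pol III makes 5S ribosomal RNA, transfer RNAs and other short RNAs, and Pol II makes messenger RNA. Each enzyme has a pair of large catalytic subunits, an assembly pair, a stalk and a set of small subunits that are partly common to the enzymes. In growing yeast much of all transcription serves ribosome production, and many genes for Pol I and Pol III are known to be turned down with other ribosome biogenesis genes under stress.

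The title of the study concerns G1/S transcription under replication stress, with Rad53, a checkpoint kinase, and Nrm1, a corepressor, as its regulators. RNA of strain BY4741, taken after release from arrest by mating pheromone, was hybridised on 61 two-colour arrays (36 of wild-type, 15 of rad53Δ and 10 of galsicΔP cells), which join 56 RNA extracts. Wild-type cells were in 0.2 M hydroxyurea (HU, which inhibits ribonucleotide reductase), 0.033% methyl methanesulfonate (MMS, which alkylates DNA), 50 µM camptothecin (CPT, a topoisomerase I poison) or untreated, each at 30, 45, 60 and 75 min. The rad53Δ cells were in HU, in MMS or untreated at 30 and 75 min. In both strains an untreated extract at 0 min exists for replicate 1. Replicate 1 was hybridised in chains over the times of each condition, closed through that extract. Its treated and untreated extracts were thus compared only indirectly, and their differences share array error. Replicate 2 was hybridised within each time. The galsicΔP cells with nrm1Δ were sampled untreated at 40 and 100 min, and their galsicΔP parent untreated at 0, 40 and 100 min. The labels do not explain the name galsicΔP. Groups hold 2 extracts. Whether these are from separate cultures is not said, and p-values then measure only their spread, which may be technical.

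The deposited ratios, Cy5 over Cy3, are read as log2 values, so all values below are log2 differences between extracts, not levels, and probe brightness is unknown. Fewer cells of a kind and less RNA per cell cannot be told apart in such bulk RNA. As a check of labels and direction, NRM1 differed by -4.17 ± 0.19 (SE) in nrm1Δ cells against the parent, with limma's adjusted p = 5.9e-14. HUG1, a known damage-inducible gene, was higher in HU by 3.88 ± 0.33. No array set rad53Δ against wild type, so RAD53 itself gives no such check. A gene is said to have risen or fallen where limma's moderated test had a Benjamini-Hochberg adjusted p under 0.05 over all 6249 features. That test takes extracts as independent, although in wild type the estimated error variance of an array was 0.853 and that of an extract 0.147 of their sum. In simulated data with such parts its p-values were too small for averages over wild-type times and too large in rad53Δ. Those of a second fit were close to their nominal rate in both strains. The simulated errors followed the model of that second fit, so they cannot show which fit suits the real arrays. That second fit, with separate array and extract error, was added after the data were seen, and its calls stand beside the counts of polymerase genes. Its percentages of all features count both directions together.

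In MMS, values of nearly all Pol I and Pol III subunit genes were lower than in untreated wild-type cells. The genes of Pol II alone changed little and in both directions. Averaged over the 4 times, 25 of the 31 genes were lower in MMS than without treatment and 1 was higher. Over all features 30.2% were lower and 28% higher. All 7 Pol I genes, both genes shared by Pol I and III, 9 of 10 Pol III genes and all 5 common genes fell, against 2 of 7 Pol II genes. The second fit called the same 26 genes, in a comparison where it called 50.7% of all features in either direction. The class medians were -0.76 for Pol I, -0.68 for the Pol I and III pair, -0.45 for Pol III, -0.72 for the common subunits and -0.14 for Pol II, with a median of -0.02 over all features.

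Among the Pol I genes, RPA190 (YOR341W), the largest catalytic subunit, differed between MMS and untreated cells by -0.68 and 0.05 in replicates 1 and 2 at 30 min, by -1.07 and -1.24 at 45 min, by -1.88 and -1.28 at 60 min, and by -1.82 and -1.87 at 75 min. Every value from 45 min on lay below both values at 30 min. The mean was -1.23 ± 0.14 (SE), with limma's adjusted p = 6.5e-08. RPA12, a small subunit that acts in RNA cleavage, differed by 0.05 and -0.52 at 30 min and by -1.74 and -1.55 at 75 min, with a mean of -1.08 ± 0.08 and an adjusted p of 5.5e-11. RPA34, which forms a dimer with RPA49, spanned -1.53 to 0.14 over the 8 pairs of extracts with a median of -1.07 and a mean of -0.85 ± 0.08. The second catalytic subunit RPA135 averaged -0.76, RPA49 -0.62, and the stalk genes RPA43 and RPA14 averaged -0.48 and -0.53. The smallest Pol I value, that of RPA43, was thus larger in size than any Pol II value in MMS.

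The Pol III genes spread more widely. RPC31 and RPC82, which together with RPC34 form the initiation subcomplex, averaged -0.97 ± 0.06 (adjusted p = 3.4e-13) and -0.76 ± 0.06 (adjusted p = 5.7e-11), both by limma. RPC31 was below 0 in all 8 pairs, between -1.37 and -0.33 with a median of -1.16. RPC34 was the only gene outside the Pol II class that did not pass limma's test in MMS, at -0.11 ± 0.08 (adjusted p = 0.25). The second fit put it at -0.22 ± 0.10, with an adjusted p of 0.051 that missed the threshold. It lay between -0.43 and 0.36, with 6 of 8 values below 0. The largest subunit RPO31 averaged -0.79 ± 0.09 and the second largest, RET1, -0.36 ± 0.07. The stalk genes RPC17 and RPC25 averaged -0.54 and -0.45, the dimer genes RPC53 and RPC37 -0.44 and -0.32, and RPC11, which acts in cleavage and termination, -0.28.

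Of the assembly pair shared by Pol I and III, RPC19 averaged -0.78 ± 0.08 and RPC40 -0.57 ± 0.06 in MMS. All 5 common subunits fell by similar amounts. RPB8 averaged -0.78 ± 0.08, RPC10 -0.73, RPB10 -0.72, RPO26 -0.68 and RPB5 -0.49. RPB8, RPB10 and RPO26 were each below 0 in all 8 pairs of extracts. The mRNA of these subunits, which Pol II needs too, thus moved with the Pol I genes in MMS and not with the Pol II genes.

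Within Pol II, RPB4 and RPB7 form the stalk, and their values had opposite signs. RPB4 was the only polymerase gene that rose in MMS, by 0.27 ± 0.07 (limma's adjusted p = 0.0017, and 0.035 in the second fit). It spanned -0.21 to 0.56 with a median of 0.32, and 1 of the 8 values was below 0. RPB7 averaged -0.21 ± 0.06 (adjusted p = 0.0044, and 0.044 in the second fit) and was below 0 in all 8 pairs, between -0.38 and -0.03. RPB9, a small subunit linked to transcription fidelity, averaged -0.30 ± 0.08 (adjusted p = 0.0026). The largest subunit RPO21 had a mean of -0.31 ± 0.15 that did not pass the test, and its replicates averaged -0.55 and -0.08. RPB2, the second largest, and the assembly pair RPB3 and RPB11, counterparts of RPC40 and RPC19, had means of -0.14, 0.15 and -0.05 without passing the test.

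**Figure D1:**
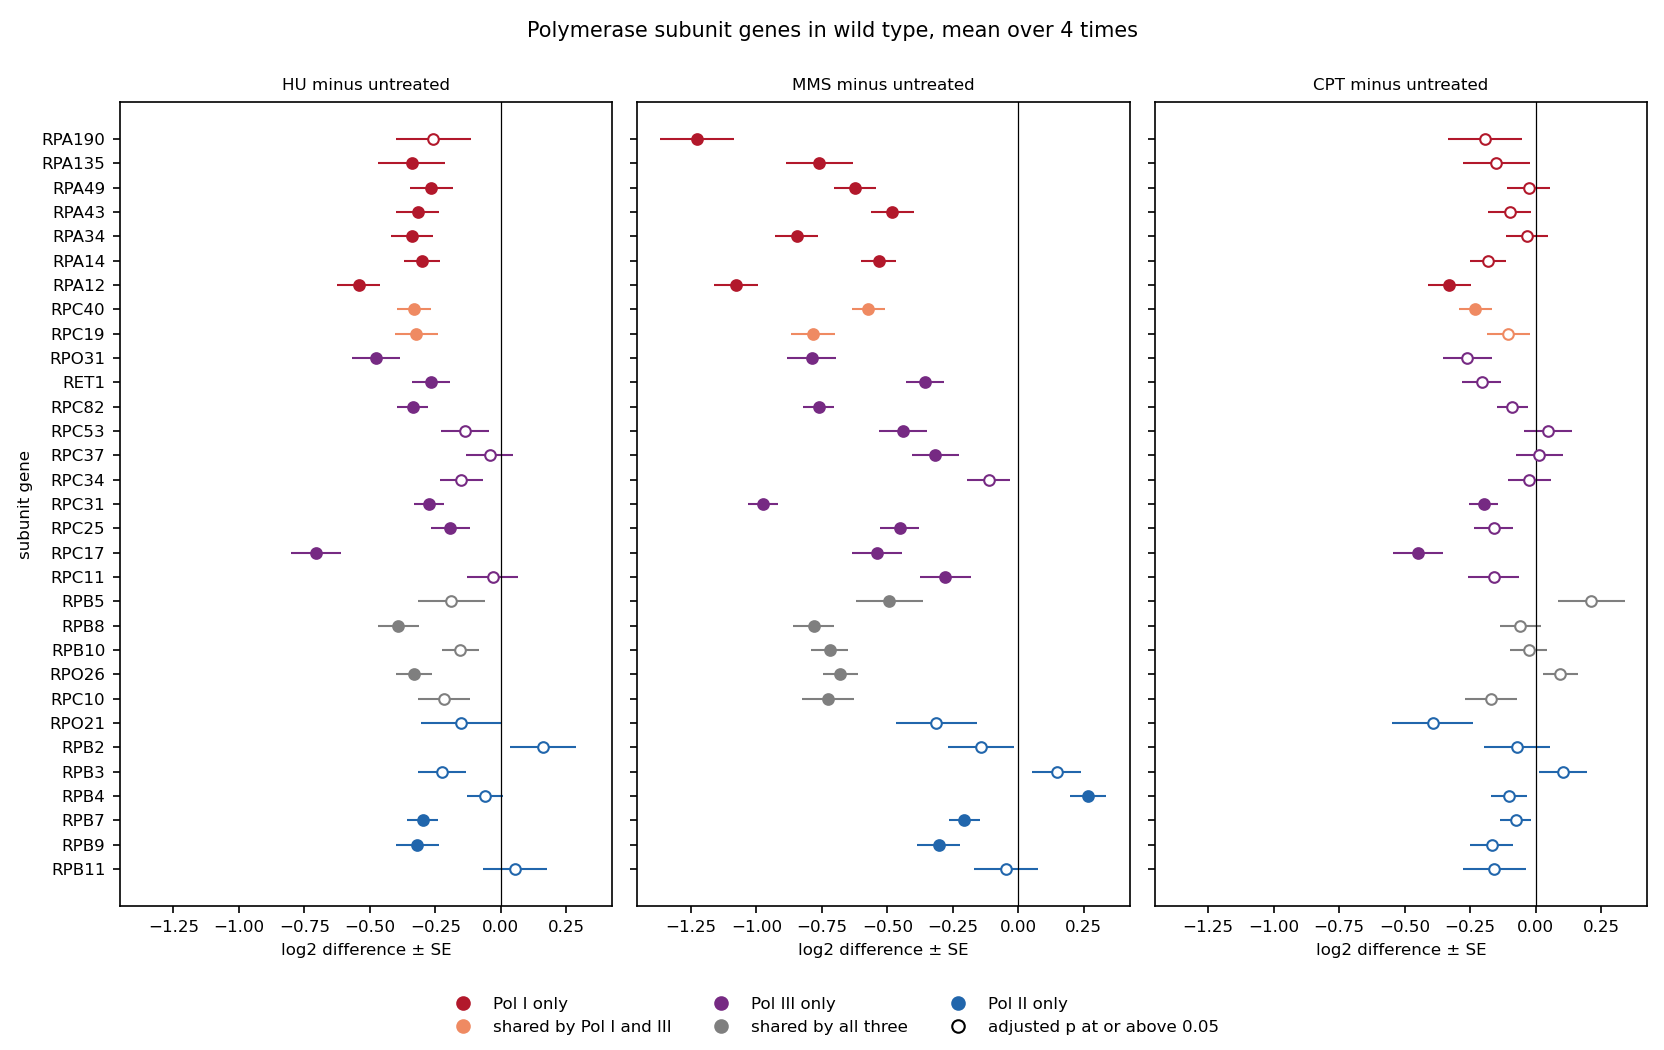
Each point is the mean log2 difference of 1 subunit gene between treated and untreated wild-type cells over 4 times (x axis, log2; bars, SE), with genes on the y axis by class, and filled points have an adjusted p under 0.05. In MMS the Pol I, Pol III and common subunits lie left of 0 down to -1.23, while the Pol II genes lie between -0.31 and 0.27.

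HU lowered many of the same classes by less. In HU 18 of the 31 genes were lower than without treatment and 0 were higher, where 17.3% of all features were lower and 15.8% higher. These were 6 of 7 Pol I genes, both genes of the Pol I and III pair, 6 of 10 Pol III genes, 2 of 5 common genes and 2 of 7 Pol II genes. Under the second fit, calls comprised 21 genes, all lower, among them all 18, with 28.5% of all features called. With 1 value per replicate and treatment and the replicate as a block, 6 of the 18 calls were kept, and without replicate 2 of wild type 9 genes passed. The class medians in HU were -0.32 for Pol I, -0.33 for the Pol I and III pair, -0.23 for Pol III, -0.22 for the common subunits and -0.15 for Pol II.

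RPC17, a Pol III stalk gene, had the lowest mean in HU, -0.71 ± 0.10 (limma's adjusted p = 3.8e-06). It was below 0 in all 8 pairs, from -1.32 to -0.22, and was lower in replicate 1 (mean -0.86) than in replicate 2 (mean -0.56). RPA12 averaged -0.54 ± 0.08 (adjusted p = 2e-05), with pairs between -1.09 and 0.34. RPO31 averaged -0.48 ± 0.09 and was below 0 in all 8 pairs, but its mean was -0.70 in replicate 1 against -0.25 in replicate 2. RPB8 averaged -0.39 ± 0.08. Of the Pol II genes, RPB7 averaged -0.30 ± 0.06 and RPB9 -0.32 ± 0.08, close to the Pol I values. RPA190, the gene with the largest fall in MMS, did not pass the test in HU at -0.26 ± 0.14 (limma's adjusted p = 0.18). RPB2 and RPB11 had signs opposite to their class median, at 0.16 and 0.06, and neither passed the test.

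Set against HU, MMS gave lower values for 19 of the 31 genes and higher values for 2, where 20.7% of all features were lower and 20.5% higher. In replicate 1 no array joined MMS with HU, so those pairs were compared only indirectly. With separate array and extract error the calls were 18 lower and 2 higher, 20 of the 21, with 36.5% of all features called. RPA190 was lower in MMS than in HU in all 8 pairs, between -1.78 and -0.14, with a mean of -0.97 ± 0.14 (limma's adjusted p = 7e-06). RPC31 was lower by a mean of -0.70 ± 0.06 (adjusted p = 4.1e-10), with pairs between -0.92 and -0.45. RPB10 differed by -0.56 ± 0.07 (adjusted p = 7e-07), and its 8 pairs lay between -0.68 and -0.40. With 1 value per replicate and treatment and the replicate as a block, 12 of the 21 calls were kept, 7 of them lower Pol I or III genes, 4 lower common genes and 1 a higher Pol II gene. The 2 genes called higher in MMS than in HU were RPB3 and RPB4 of Pol II. RPB3 was above 0 in all 8 pairs, between 0.23 and 0.61, with a mean of 0.37 ± 0.09 (limma's adjusted p = 0.0023, and 0.081 with the replicate block). RPB4 had a mean of 0.33 ± 0.07 (adjusted p = 0.00045). The class medians were -0.42 for Pol I, -0.35 for the Pol I and III pair, -0.27 for Pol III, -0.39 for the common subunits and 0.01 for Pol II. RPC17 and RPC34 had signs opposite to their Pol III class, and neither passed the test.

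In CPT few polymerase genes passed the test. By limma 4 of the 31 genes were lower in CPT and 0 higher, where 3.54% of all features were lower and 2.48% higher. The second fit called 0 of the 31 genes (8 at an unadjusted p under 0.05) and 1.52% of all features, so none of these 4 is described as fallen. Without replicate 1 of wild type 0 genes passed the first test, and without replicate 2, 13 did. RPC17 differed by -0.45 ± 0.10 (limma's adjusted p = 0.0093; 0.23 in the second fit). Its mean was -0.65 in replicate 1 and -0.25 in replicate 2. RPA12 differed by -0.33 ± 0.08, RPC40 by -0.23 ± 0.06 and RPC31 by -0.20 ± 0.06. Over the 31 genes the means of the 2 replicates correlated with r = 0.74 in MMS, 0.433 in HU and -0.141 in CPT, given as a description across genes that share arrays and untreated extracts.

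The median of the 19 genes of Pol I and III minus the median of the 7 Pol II genes was -0.43 in MMS, -0.15 in HU and -0.06 in CPT. The SD of this difference between the 8 pairs of extracts was 0.47, 0.24 and 0.20. The 4 pairs of replicate 1 were joined only through chains of arrays, so the 8 values are neither alike nor separate. The large SD in MMS went with time. At 30 min the difference was 0.16 in replicate 1 and 0.03 in replicate 2, at 45 min -0.17 and -0.66, at 60 min -0.49 and -0.73, and at 75 min -0.75 and -1.27. The 2 values at 30 min were thus the only ones above 0. In CPT the 8 differences lay on both sides of 0, and they were above 0 in all 4 pairs of replicate 1.

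The class medians in MMS lay closer together at 30 min than at 75 min. In the plot of class medians by time, the Pol I median in MMS was 0.05 in both replicates at 30 min, -0.38 and -0.95 at 45 min, -0.94 and -1.13 at 60 min and -1.10 and -1.55 at 75 min. The Pol III median was 0.00 and -0.22 at 30 min and -0.79 and -0.96 at 75 min. The Pol II median stayed between -0.29 and 0.02 over the 8 pairs. The common subunits were already at -0.60 in replicate 2 at 30 min, against -0.07 in replicate 1, and reached -0.80 and -1.22 at 75 min.

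**Figure D2:**
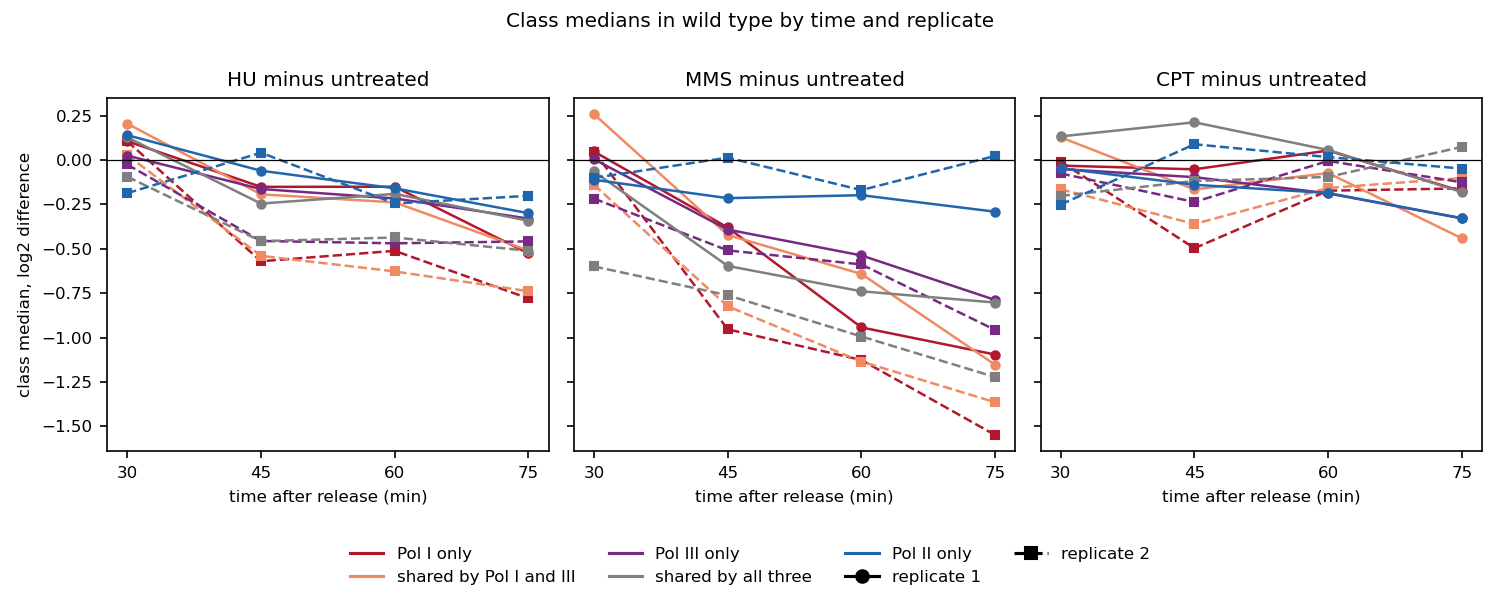
Lines join the class medians of the log2 difference between treated and untreated wild-type cells (y axis) at 30, 45, 60 and 75 min after release (x axis), with replicate 1 as circles and solid lines and replicate 2 as squares and dashed lines. In MMS the Pol I medians end at -1.10 and -1.55 at 75 min while the Pol II medians end at -0.29 and 0.02.

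Tested as the MMS response at 75 min minus that at 30 min, 16 of the 31 genes were lower at the later time and 0 higher, where 11.3% of all features were lower and 11.4% higher. The added fit called 19, all lower and among them all 16, with 23.8% of all features called. All 7 Pol I genes, both of the Pol I and III pair, 5 Pol III genes and 2 common genes passed, and 0 of the 7 Pol II genes did. RPA49 differed by 0.25 and 0.42 at 30 min and by -1.09 and -1.74 at 75 min, a change of -1.75 ± 0.23 (limma's adjusted p = 6.1e-06). RPC40 changed by -1.43 ± 0.18 (adjusted p = 3.6e-06), RPA190 by -1.53 ± 0.40 and RPO31 by -1.40 ± 0.26. RPO26 changed by -0.84 ± 0.19 and RPC10 by -0.84 ± 0.28. The class medians of this change were -1.37 for Pol I, -1.32 for the Pol I and III pair, -0.74 for Pol III, -0.84 for the common subunits and -0.04 for Pol II. Genes specific to MATa cells, which respond to mating pheromone, moved in the same comparison, 2 of 6 past the test, with values between -1.89 and 0.04. Averaged over the 4 times in MMS, where 28% of all features were higher and 30.2% lower, 4 of these 6 passed. Their values lay between -0.48 and 0.07, and their part in the MMS results was not tested.

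For HU the same comparison of times called 6 genes as lower and 0 as higher, where 4.19% of all features were lower and 3.87% higher. The second fit called 7, among them the 6, with 12.8% of all features called. They were RPA49, RPA34, RPA14 and RPA12 of Pol I, RPC40 of the Pol I and III pair, and RPO26 of the common subunits. RPC40 went furthest past the threshold with a change of -0.85 ± 0.18 (limma's adjusted p = 0.0042), and RPA12 had the largest change, -0.99 ± 0.23. The Pol III median changed by -0.48 and that of Pol II by -0.26, and 0 genes of either class passed by limma. Without replicate 1 or 2 of wild type 4 and 3 genes passed. Of the 6 MATa genes 2 passed in this comparison, with values between -1.71 and 0.18. In HU averaged over the times 2 passed, with values between -0.51 and 0.08. There 15.8% of all features were higher and 17.3% lower, a share close to that of the MATa genes. The part of the MATa genes in the HU results was not tested. For CPT 0 of the 31 genes changed between the times in either fit (1 at an unadjusted p under 0.05 in each), where 0.96% of all features were lower and 0.464% higher by the first and 3.46% were called by the second. The CPT changes of the 31 genes lay between -0.53 and 0.44.

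The 0 min extract of wild-type replicate 1 places these differences in a course, with 1 extract per point and no test. Against 0 min, the Pol I median in untreated cells was 0.41, 0.27, 0.34 and 0.20 at 30, 45, 60 and 75 min. In MMS it was 0.46, -0.39, -0.60 and -0.87, and in HU 0.52, -0.08, 0.03 and -0.31. By 75 min in MMS 0 of the 19 Pol I and III genes lay above their 0 min value, against 13 of 19 in untreated cells. The Pol II median in MMS was 0.11, 0.23, 0.18 and 0.16, and in untreated cells 0.09, 0.19, 0.25 and 0.26. At 30 min the Pol I median was thus above its 0 min value in all 4 conditions. These share that 1 extract at 0 min, so the 4 values are not independent.

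**Figure D3:**
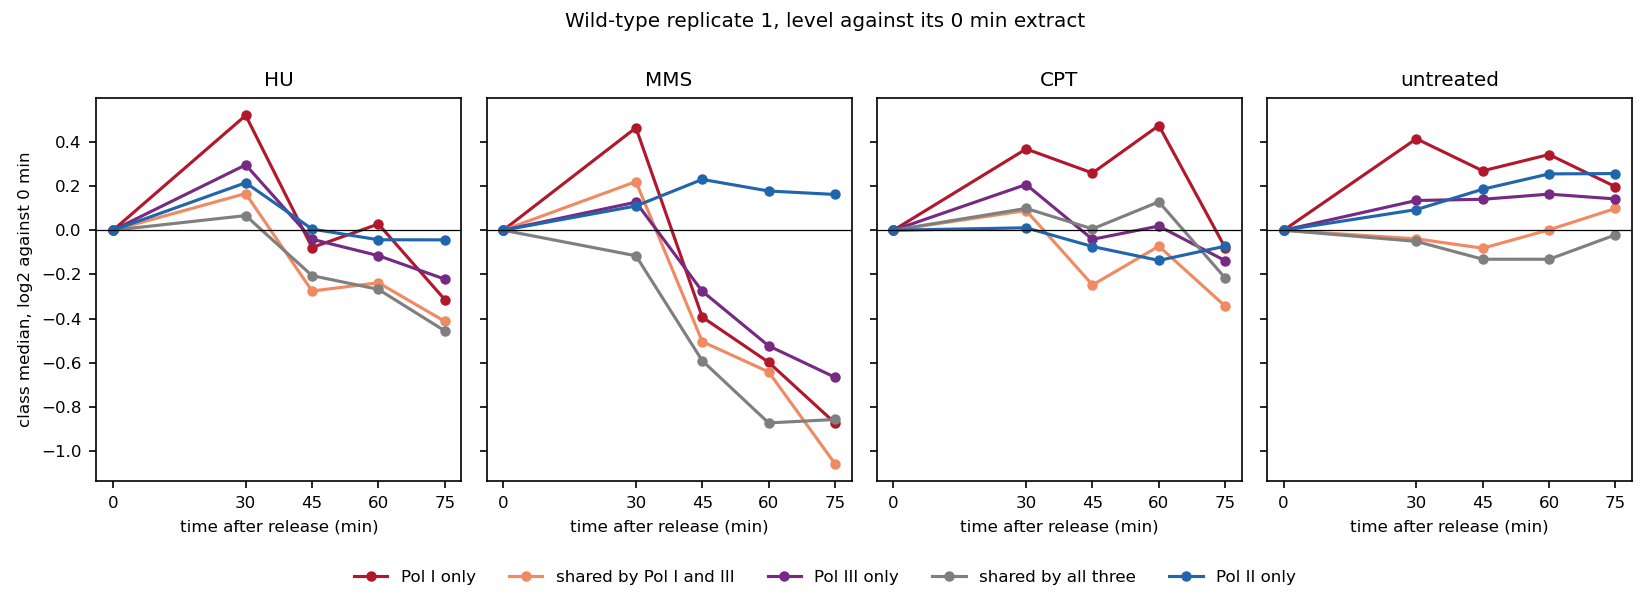
Each line is a class median of the log2 level (y axis) against the 0 min extract of wild-type replicate 1, by time after release in min (x axis), 1 panel per condition. The Pol I median is between 0.37 and 0.52 at 30 min in all 4 conditions and ends at -0.87 in MMS and 0.20 in untreated cells.

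Genes that work with the polymerases did not all follow their subunits in MMS. Of 9 Pol I initiation factor and associated genes, 7 fell and 0 rose, with a median of -0.32. Of 10 Pol III factor genes, 6 rose and 2 fell, with a median of 0.17, while the Pol III subunits had a median of -0.45. Of 18 Pol II general factor genes, 6 rose and 5 fell, close to the shares of all features (28% higher and 30.2% lower). Of 12 elongation factor genes 6 rose and 2 fell. Among 7 genes for polymerase assembly and import, 2 rose, also near the share of all features, and 3 fell. Among 7 genes for ubiquitination of the largest Pol II subunit 1 rose. Of 48 ribosome biogenesis genes 45 fell, with a median of -0.79 that lay close to the Pol I median. In HU 42 of these 48 were lower, with a median of -0.41. These lists were counted by limma's first test, beside the shares of all features given above. They were chosen with earlier results of these data known, so the counts are a description and no independent support for a pattern. In the second fit 4 Pol III factor genes rose and 1 fell in MMS, 4 elongation factor genes rose and 2 fell, 0 ubiquitination genes were called, and 46 ribosome biogenesis genes fell in MMS and 44 in HU.

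The rad53Δ cells lack the checkpoint kinase, and the comparison asks how far the responses depend on it. In rad53Δ cells in MMS, 5 of the 31 genes were lower than without treatment and 1 was higher, where 4.78% of all features were lower and 8.59% higher. The added fit called 15 lower and 2 higher, among them all 6, with 38.8% of all features called. Without replicate 1 of rad53Δ 2 genes passed the first test, and without replicate 2, 1 did, where the lone extract is assumed to vary like the other groups. RPO26, a common subunit, differed by -0.47 and -0.14 in replicates 1 and 2 at 30 min and by -0.91 and -0.95 at 75 min, with a mean of -0.62 ± 0.10 (limma's adjusted p = 6.1e-05). RPC31 differed by -0.17 and -0.19 at 30 min and by -0.46 and -0.72 at 75 min, with a mean of -0.39 ± 0.08 (adjusted p = 0.0015). RPA12, RPB8 and RPB10 also fell, by means of -0.42, -0.41 and -0.40. RPC34 rose by 0.39 ± 0.12 (adjusted p = 0.024) and was above 0 in all 4 pairs, 0.26 and 0.34 at 30 min and 0.68 and 0.30 at 75 min. The class medians were -0.22 for Pol I, -0.22 for the Pol I and III pair, -0.18 for Pol III, -0.40 for the common subunits and -0.02 for Pol II.

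In rad53Δ cells in HU, 3 genes were lower and 0 higher, where 3.18% of all features were lower and 3.97% higher. Calls of the second fit were 12, all lower and among them the 3, with 32.4% of all features called. Without replicate 1 of rad53Δ 1 gene passed the first test, and without replicate 2, 0 did. RPC17 differed by -0.30 and -0.64 at 30 min and by -0.72 and -1.09 at 75 min, a mean of -0.69 ± 0.13 (limma's adjusted p = 0.0024), beside -0.65 in wild type over the same times. RPO26 averaged -0.43 ± 0.10 and RPB4 -0.35 ± 0.10 (adjusted p = 0.025). RPB4 was below 0 in all 4 pairs in HU, whereas its 4 values in MMS lay between -0.09 and 0.02. The median of the 19 Pol I and III genes minus that of the 7 Pol II genes was -0.17 in MMS (SD between the 4 pairs 0.26) and -0.0036 in HU (SD 0.067).

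The difference between the responses of the strains was tested over 30 and 75 min. No array joined the strains, so an effect of strain cannot be told apart from one of the array set. In MMS 4 of the 31 genes had a higher response in rad53Δ than in wild type and 0 a lower one, where 3.92% of all features were higher and 3.44% lower. RPA34 averaged -0.08 in rad53Δ and -0.70 in wild type, a difference of 0.62 ± 0.16 (limma's adjusted p = 0.018). RPC82 averaged 0.00 in rad53Δ and -0.61 in wild type, a difference of 0.62 ± 0.12 (adjusted p = 0.0021). RPA49 averaged -0.01 and RPC31 -0.39 in rad53Δ, against -0.54 and -0.87 in wild type, and their differences were 0.54 ± 0.16 and 0.48 ± 0.11 (adjusted p = 0.044 and 0.0091). The MMS values of these 4 genes thus lay nearer to 0 in rad53Δ. The count moved with single replicates: 0 genes passed with either rad53Δ replicate left out, 10 without replicate 1 of wild type and 2 without its replicate 2.

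The second fit called 10 genes with a higher MMS response in rad53Δ, among them the 4, with 14.3% of all features called. Its other calls were RPA190, RPA43 and RPA12 of Pol I, RPC40 and RPC19, and RPC34 of Pol III. All 10 are Pol I or Pol III genes, and 0 common or Pol II genes were called by either fit. The class medians of the difference were 0.52 for Pol I, 0.38 for the Pol I and III pair, 0.23 for Pol III, 0.23 for the common subunits and 0.15 for Pol II, and 29 of the 31 genes had a difference above 0. RPO26 averaged -0.62 in rad53Δ and -0.64 in wild type, a difference of 0.02 ± 0.13 that did not pass the test. Of the 48 ribosome biogenesis genes, 31 had a higher MMS response in rad53Δ by limma's first test and 41 by the second fit, with a median of 0.61.

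In HU 0 of the 31 genes differed between strains by limma's first test, where 1.41% of all features were higher in rad53Δ and 1.39% lower, and 3 of the 31 had an unadjusted p under 0.05. The added fit called RPA190 and RPA135 as higher in rad53Δ (0.63 and 0.53, adjusted p = 0.045 and 0.044) and RPB4 as lower (-0.33, adjusted p = 0.048), with 10.5% of all features called. The catalytic Pol I genes RPA190 and RPA135 thus stood close to the threshold in that fit.

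**Figure D4:**
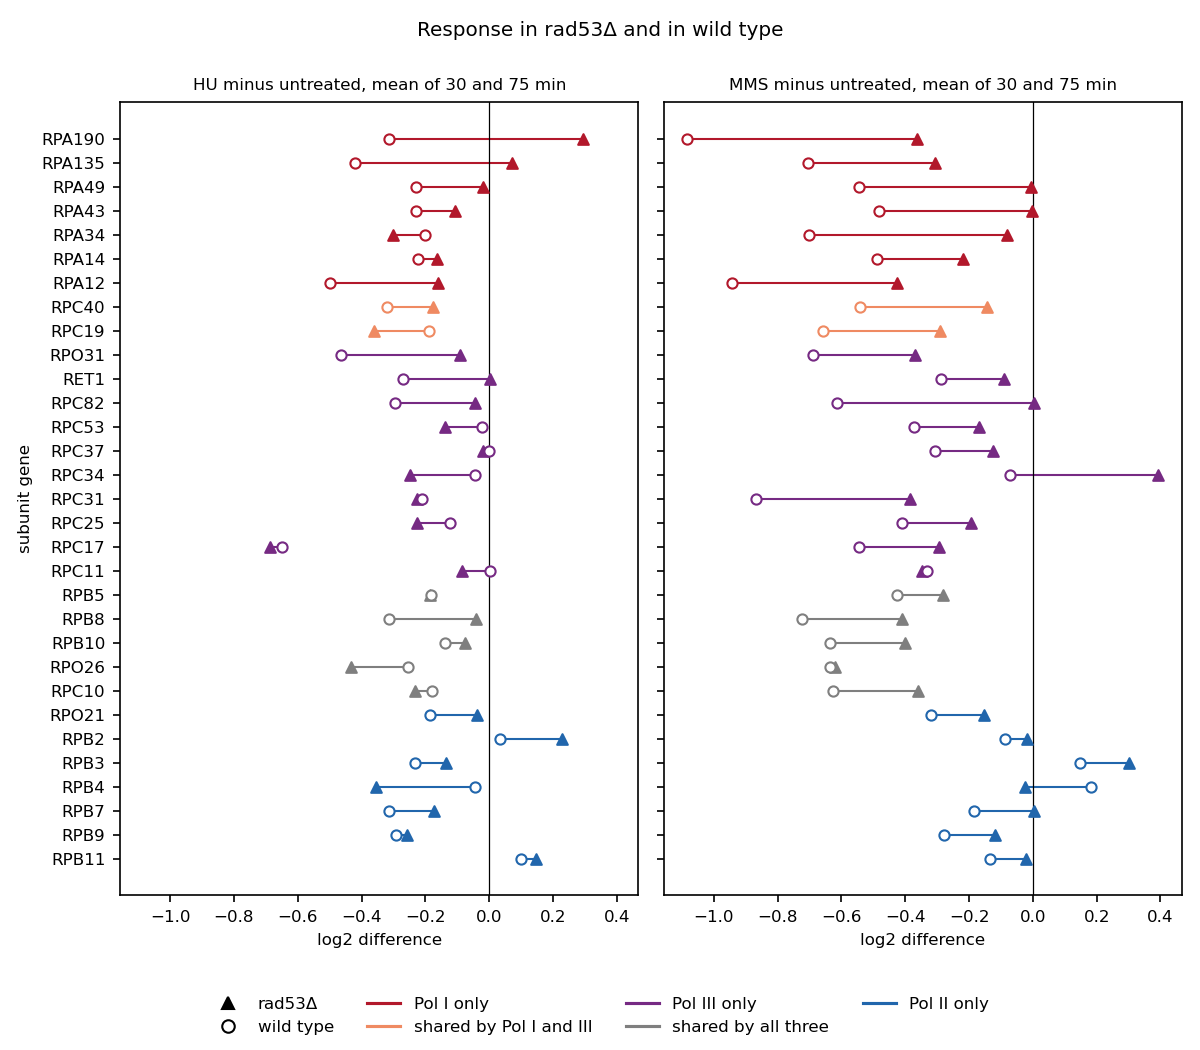
Each row is 1 subunit gene (y axis), with its mean log2 difference between treated and untreated cells over 30 and 75 min (x axis) in rad53Δ (triangles) and in wild type (circles), joined by a line. In MMS the rad53Δ triangles lie right of the wild-type circles for 29 of the 31 genes, while the 2 values of RPO26 nearly meet at -0.62 and -0.64.

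In galsicΔP cells the comparison of nrm1Δ with its parent asked what loss of the corepressor Nrm1 does without any agent. Most polymerase genes did not pass the test here. In nrm1Δ cells 5 of the 31 genes were higher and 2 lower than in the parent, averaged over 40 and 100 min. Of all features 14.5% were higher and 17.2% lower, so the share of polymerase genes called higher was close to that of all features. Under the second fit, calls comprised 6 higher and 2 lower, among them the 7. It called 35.6% of all features in either direction, a larger share than that of the 31 genes. RPC37 differed by 0.90 and 0.80 in the 2 hybridisation loops at 40 min and by 0.56 and 0.09 at 100 min, with a mean of 0.59 ± 0.13 (limma's adjusted p = 0.001). RPA34, RPA43, RPA49 and RPC25 rose by means of 0.33, 0.33, 0.32 and 0.32, and each was above 0 in all 4 pairs.

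The 2 genes lower in nrm1Δ, a smaller share of the 31 than the 17.2% of all features, were RPO21 and RPO31. RPO21, the largest subunit of Pol II, differed by -1.35 and -0.25 at 40 min and by -0.83 and -0.02 at 100 min in loops 1 and 2, with a mean of -0.61 ± 0.22 (limma's adjusted p = 0.034). Most of its fall thus came from loop 1. RPO31, the largest subunit of Pol III, was below 0 in all 4 pairs, -0.55 and -0.39 at 40 min and -0.49 and -0.18 at 100 min, with a mean of -0.40 ± 0.13 (adjusted p = 0.02). RPA190 of Pol I did not pass the test at -0.16 ± 0.20, with -0.97 and 0.30 at 40 min in loops 1 and 2. With 1 value per loop and genotype and the loop as a block, 5 of the 7 calls were kept, while RPO21 and RPC25 had adjusted p = 0.062 and 0.057 by limma. With arrays scaled to equal spread 0 of the 31 genes passed, and with loop 1 or loop 2 left out 1 and 2 did. The class medians were 0.25 for Pol I, 0.21 for the Pol I and III pair, 0.10 for Pol III, 0.08 for the common subunits and 0.02 for Pol II. Genes specific to MATa cells moved in the same comparison, 5 of 6 past the test, with values between -2.26 and -0.02, and their part in these differences was not tested.

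The parent at 40 min, set against 0 min, had higher values for most polymerase subunit genes. Of the 31 genes 24 were higher and 2 lower, where 28.8% of all features were higher and 28.5% lower. The added fit called 25 higher and 2 lower, among them the 26, with 62.4% of all features called. Only 1 parent extract at 40 min was hybridised in the same loop as the 2 extracts at 0 min, so both values of a gene share it. RPA190 was higher by 1.58 and 2.95 against the 2 extracts at 0 min, with a fitted difference of 1.94 ± 0.30 (limma's adjusted p = 5.9e-06). RPA43 was higher by 1.83 and 2.03, and fitted at 1.82 ± 0.17 (adjusted p = 2.5e-09). The common subunits RPB5 and RPB8 rose by as much, 1.92 ± 0.27 and 1.84 ± 0.17.

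RPC37 went against its class at 40 min, with -0.82 and -1.33 and a fitted difference of -1.09 ± 0.19 (limma's adjusted p = 2.5e-05), while 8 of the other 9 Pol III genes rose. RPB4 was the other gene that fell, by a fitted -0.37 ± 0.14. Of the Pol II genes RPB9, RPB11 and RPB3 rose, by 1.23, 0.69 and 0.54. The class medians were 1.67 for Pol I, 0.81 for the Pol I and III pair, 0.76 for Pol III, 1.50 for the common subunits and 0.22 for Pol II, with -0.02 over all features. With arrays scaled to equal spread, 3 of the 31 genes passed. MATa genes differed by -4.84 to 0.00 here, 5 of 6 past the test, and their part in the result was not tested.

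At 100 min against 40 min 10 of the 31 genes were higher in the parent and 0 lower, where 13.5% of all features were higher and 14.4% lower. The second fit called 12, all higher and among them the 10, with 33.3% of all features called. All 10 belong to Pol I, to Pol III or to the pair shared by them, and 0 common or Pol II genes passed. RPC37 rose most, by 0.76 in replicate 1 and 1.11 in replicate 2, fitted at 0.93 ± 0.18 (limma's adjusted p = 3e-04), after its lower value at 40 min than at 0 min. The parent extracts at 40 min enter both comparisons and that with nrm1Δ, so the RPC37 values in these are not independent. RPA12 rose by 0.38 and 0.90, fitted at 0.64 ± 0.17, RPC19 by 0.63 ± 0.17 and RPC34 by 0.62 ± 0.17. RPA49, RPA43 and RPC31 rose by 0.61, 0.59 and 0.48, and each was above 0 in both replicates. With arrays scaled to equal spread 2 of the 31 genes passed, and without loop 2, 0 did. MATa genes differed by -3.60 to -0.05, 5 of 6 past the test, and their part was not tested.

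**Figure D5:**
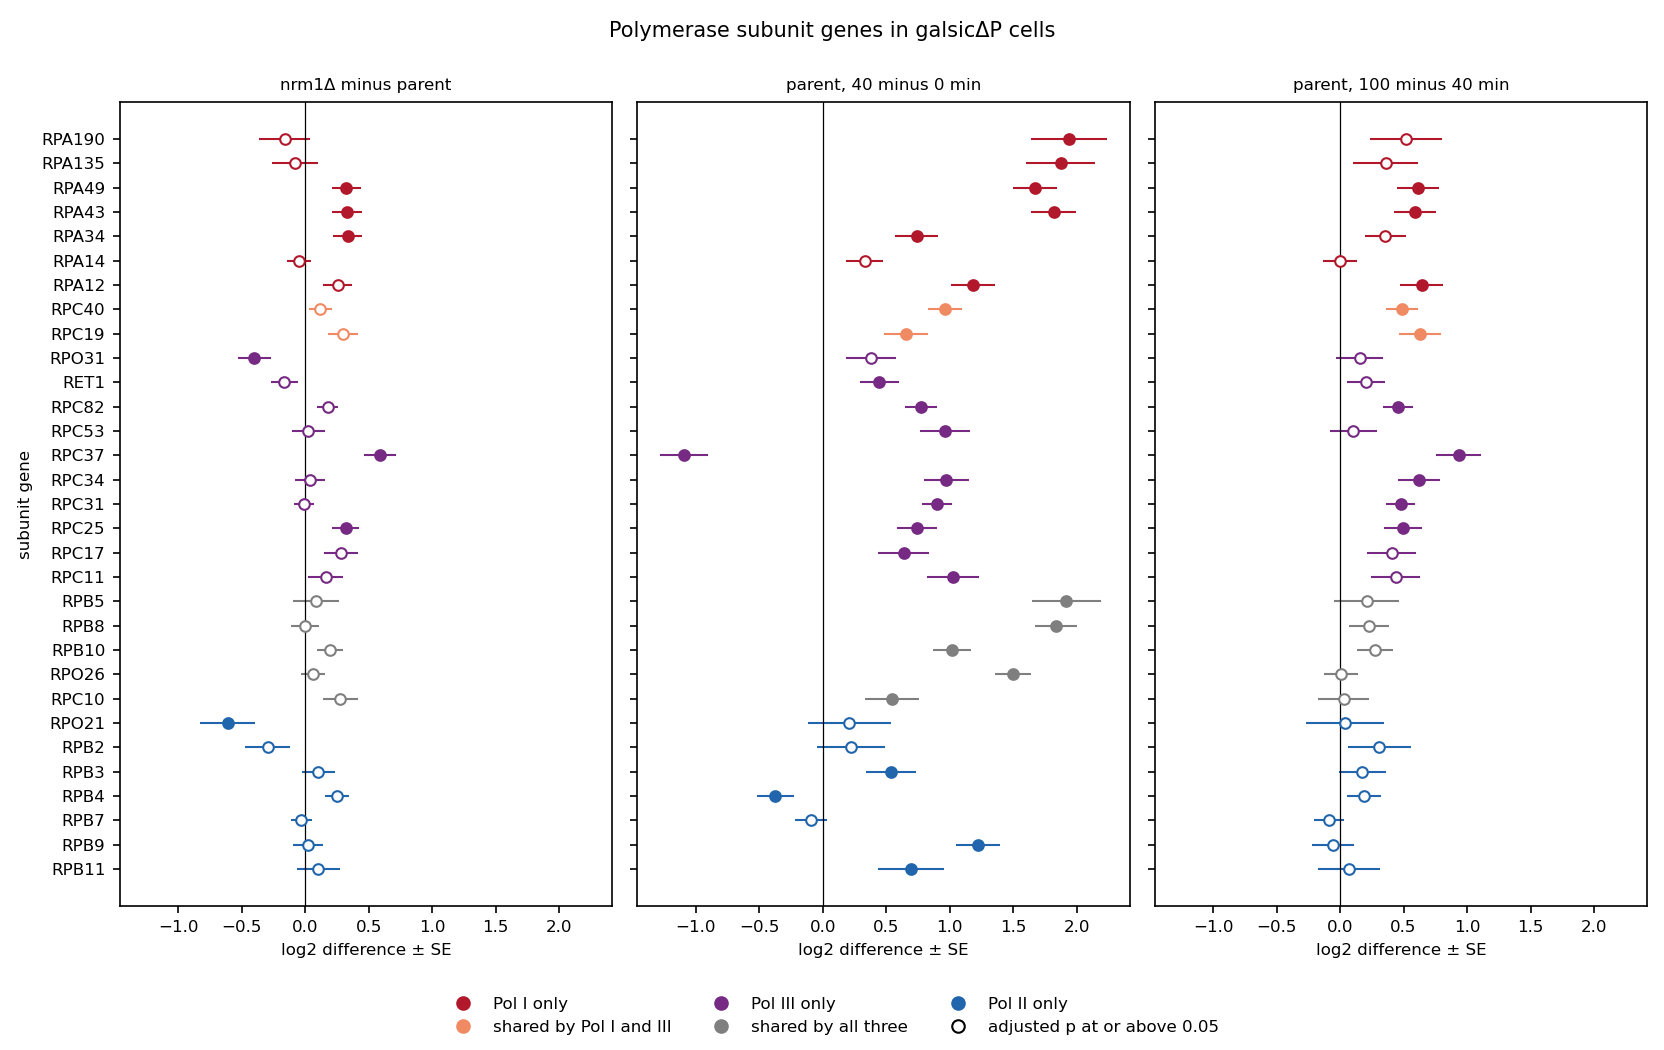
Each point is the fitted log2 difference of 1 subunit gene (x axis, bars SE; genes on the y axis by class) for nrm1Δ minus parent, for the parent at 40 minus 0 min and for the parent at 100 minus 40 min, with filled points at an adjusted p under 0.05. RPC37 is at -1.09 in the middle panel and at 0.93 in the right panel, while most other Pol I and III genes are above 0 in both. All panels use the parent extracts at 40 min, so their values are not independent.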

How the data were processed

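The authors deposited 1 value per probe and array, which is taken here as a log2 ratio of Cy5 over Cy3. The base and direction are not stated. Per the submitters' processing notes limma was used, with no version named. How background and dyes were treated is not given in the sources used here. Values for 6266 probes were present with 0 missing, and of these probes 5609 carried 1 symbol and 657 none, and 5608 matched RefSeq's table. The medians of the 61 arrays lay between -0.03 and 0.02, so a change shared by all mRNAs of an extract would not be seen. No background intensity is given, and the number of arrays limits the precision.

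Least squares on the ratios of each strain, with a dye term per feature, gave each extract a relative level. limma 3.58.1 in R 4.3.3 was then fitted to 54 extracts with terms for groups and 14 hybridisation blocks, leaving 20 residual degrees of freedom (prior 4.41, prior SD 0.155). The wild-type and rad53Δ extracts at 0 min stand alone in their blocks and took no part. Tests were adjusted by Benjamini-Hochberg over 6249 features at 0.05. Wild-type comparisons average 30, 45, 60 and 75 min, and rad53Δ and strain comparisons average 30 and 75 min. Comparisons of agents use the same untreated extracts, so their counts are not independent. Tested on simulated data, this fit was close to its nominal error rate where extract errors were independent, as it assumes. With array and extract errors of the estimated size it called unchanged genes too often in wild type and too rarely in rad53Δ. The added fit weights arrays by both parts (extract share 0.147 in wild type, 0.3 in rad53Δ, 0.444 in galsicΔP). In the same simulations it was close to nominal in wild type and rad53Δ and slightly above in galsicΔP. Those simulations drew errors from its own model, so they cannot show whether that model suits the real arrays.

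On 2 arrays the title names MMS at 0 min where the other labels give the untreated sample, which was used. On 6 galsicΔP arrays both channels carry 1 genotype entry, and genotypes came from the title. On 1 rad53Δ array source names give 75 min, and the 30 min of title and time entry was used.

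Members and lists were chosen with earlier results of these data known. All 31 members may be named. Full values go to members past the threshold with the largest values in their class (up to 3) and to members of opposite sign to their class median, and other genes are named only where 5 or fewer count or as checks (NRM1, HUG1). Promoter motifs were not analysed here. Alternatives were median centring, scaling to equal spread, other dye terms, each strain alone, 1 value per replicate and treatment, a one-step array fit with slide as a random block, a robust prior and leaving out replicates. In wild type and rad53Δ, extracts were hybridised only with extracts of the same replicate number, and blocks follow strain, number and time. In galsicΔP both loops mix the numbers, and blocks follow the loops. Figures were drawn with matplotlib 3.10.9 in Python 3.11.15.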

Additional observations from a re-analysis of the deposited data

Results flagged for a closer look

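The MMS response of 4 polymerase genes differed between rad53Δ and wild type in limma's test of the difference itself, over 30 and 75 min, where 3.92% of all features were higher in rad53Δ and 3.44% lower. The difference was 0.54 ± 0.16 (SE) for RPA49 (adjusted p = 0.044) and 0.62 ± 0.16 for RPA34 (adjusted p = 0.018). It was 0.62 ± 0.12 for RPC82 (adjusted p = 0.0021) and 0.48 ± 0.11 for RPC31 (adjusted p = 0.0091). All 4 values are above 0, which means a response nearer to 0 in rad53Δ than in wild type. With the replicate block RPA34 and RPC82 kept their calls (adjusted p = 0.02 and 0.013), RPA49 and RPC31 did not (0.064 and 0.061), and 0 of the 4 passed under every alternative run. With either rad53Δ replicate left out, 0 of the 31 genes passed.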

How the results depend on the processing

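The fit with array and extract error was chosen after seeing the data. Over the named genes 1490 values were on the same side of the threshold, 145 were weaker, 15 stronger and 0 reversed. In MMS 21 of 26 calls passed under every alternative run, and 22 with the replicate block, against 3 and 6 of 18 in HU. With 1 value per replicate and treatment and the replicate block, the paired count was 6 in HU, 0 in CPT, 12 for MMS against HU and 2 for the MMS strain difference. With arrays scaled to equal spread it was 7 in CPT, 1 for the MMS strain difference, 0 for nrm1Δ, 3 for 40 against 0 min and 2 for 100 against 40 min, and the nrm1Δ difference of medians was 0.036. With each strain fitted alone it was 1 in CPT, 2 for HU over time, 13 and 16 for rad53Δ in HU and MMS, and 1 for nrm1Δ. The one-step array fit gave 2 in CPT, 13 and 1 for HU and CPT over time, 7 and 12 for rad53Δ in HU and MMS, 4 and 11 for the strain differences in HU and MMS, 11 for nrm1Δ and 16 for 100 against 40 min. The fit with array and extract error gave 0 in CPT, 12 and 17 for rad53Δ in HU and MMS, and 3 and 10 for the strain differences. Why these counts moved was not tested.

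Leaving out 1 replicate or loop gave 9 to 19 genes in HU, 23 to 27 in MMS, 0 to 13 in CPT, 15 to 18 for MMS against HU, 3 to 4 for HU over time, 15 to 16 for MMS over time and 0 for CPT over time. It gave 0 to 1 and 1 to 2 for rad53Δ in HU and MMS, 0 and 0 to 10 for the strain differences in HU and MMS, 1 to 2 for nrm1Δ, 25 for 40 against 0 min (without loop 2, the only omission that could be fitted) and 0 to 11 for 100 against 40 min. The Pol I and III median minus the Pol II median then ranged over -0.19 to -0.05 in HU, -0.63 to -0.26 in MMS, -0.11 to 0.07 in CPT, -0.37 to -0.31 for MMS against HU, -0.0204 to -0.0183 and -0.19 to -0.13 for rad53Δ in HU and MMS, and 0.11 to 0.25 for nrm1Δ. Signal over background is unknown, so a ratio of a dim probe cannot be told from that of a bright one.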
